A study of Homo sapiens with 8 samples.

Results

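A stretch of 3.4 Mb on chromosome 1, from the first base of PABPC4 at 39799075 to the last base of SLC2A1 at 43197126 (NCBI36, 1-based), was followed in RNA from KASUMI-1 and THP-1, both acute myeloid leukemia lines, grown with an inhibitor of the histone demethylase LSD1 or with vehicle. Its members were the names of the deposited gene table that lay wholly inside those bounds and had at least 10 reads in some library. This gave 53 members of 33045 names in the table, out of 79 names inside the bounds. The other 26 names had fewer than 10 reads in every library, and 6 of them had 0, among them the peptide hormone genes EDN2, GUCA2A and GUCA2B. The members just inside the read threshold were RP11-163G10.3 with a highest count of 10 reads, FOXO6 with 11 and AL110502.1-2 with 17, and the highest name just outside it, RP1-63P18.2, reached 7. The stretch was chosen by the level of its genes in KASUMI-1 relative to THP-1 in these same libraries, so the line difference is given below as a description and carries no test.

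KASUMI-1, a line with the RUNX1::RUNX1T1 fusion that the study calls sensitive to LSD1 inhibition, was treated with LSD1i (DDP38003, 0.5 µM) or vehicle for 6 and 72 h. THP-1 cells, which are monocytic, carry a KMT2A fusion and are called resistant by the study, were treated with LSD1i at the same dose or vehicle for 24 and 72 h. Every condition had 1 library: 4 per line, which form 4 pairs of LSD1i and vehicle matched by line and time. The labels do not say whether the cultures were separate, and p-values then measure only how these libraries spread, which may be technical.

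LSD1 (gene KDM1A) removes methyl groups from lysine 4 of histone H3 and works with the corepressor CoREST. In blood cells it is brought to DNA by the repressors GFI1 and GFI1B, and its inhibition is known to release genes of myeloid maturation. The stretch holds genes of unrelated function: MYCL of the MYC family of transcription factors, the glucose transporter GLUT1 encoded by SLC2A1, the actin regulator CAP1, the lysosomal enzyme PPT1, the nucleic acid-binding protein YBX1, and a run of zinc finger genes.

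Reads on genes ranged from 23722972 to 45970766 per library. The line markers stood as the labels say, though some lay less far apart than those given next. RUNX1T1 ranged from 76.2 to 106 CPM (reads relative to the library's size, scaled by TMM) in KASUMI-1 and from 0.119 to 0.201 CPM in THP-1. HOXA9 ranged from 0.919 to 1.51 CPM in KASUMI-1 and from 53.2 to 56.3 CPM in THP-1. CD14 was low in both, at up to 0.0890 CPM in KASUMI-1 and 0.570 to 3.81 CPM in THP-1. HBB and PF4, markers of red cells and platelets, had 0 reads in all 8 libraries. Of the members, 43 matched a current human symbol, 8 of them through an older one: MYCL, MFSD2A, ZFP69B, ZFP69, EXO5, CTPS1, P3H1 and SVBP stand in the table as MYCL1, MFSD2, ZNF643, ZNF642, DEM1, CTPS, LEPRE1 and CCDC23. The other 10 carry clone names. The spans of 26 members overlap another name of the stretch, such as OXCT2 inside BMP8B, PPIE beside BMP8B, and SVBP beside ERMAP. The recorded counting command set no strand option, and some partners, such as OXCT2 and BMP8B, lie on the same strand. Spans include introns, and whether reads of such partners were mixed was not tested.

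Promoter sequence was at hand for 36 members, as 48 windows of the 250 bases before an annotated start (RefSeq, GRCh38.p14). They were searched on both strands for AATC, the core of GFI1 and GFI1B sites (GATT on the other strand), and for CACGTG, the E-box that MYC-family dimers bind. AATC or GATT stood in 26 of the 48 windows, or 54.2%, against 64.8% of all 35116 windows of the same length. CACGTG stood in 4 of the 48, or 8.33%, against 6.34% of all. The members' windows had a median G and C content of 67.8%, against 58% for all. The windows of 5 members whose level moved with the inhibitor are printed below, 5′ to 3′ on the gene's strand, to show the letters before the starts of 1 gene that rose and 4 that fell in THP-1. OXCT2, which also fell there, is not printed, and TRIT1, which also rose, had no window at hand. Capitals mark AATC or GATT. MYCL at chr1:39901918-39902167 (minus strand), BMP8B at chr1:39788866-39789115 (minus) and SLC2A1 at chr1:42958869-42959118 (minus) held no match, CITED4 at chr1:40862364-40862613 (minus) held 2, and MFSD2A at chr1:39954895-39955144 (plus) held 3. A match is a string of letters here and no measured site.
MYCL: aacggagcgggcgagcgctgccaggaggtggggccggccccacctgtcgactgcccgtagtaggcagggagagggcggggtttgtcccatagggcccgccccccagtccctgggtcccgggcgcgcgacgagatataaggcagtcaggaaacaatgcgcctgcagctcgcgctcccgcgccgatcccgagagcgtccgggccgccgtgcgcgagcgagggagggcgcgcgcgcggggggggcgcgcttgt
BMP8B: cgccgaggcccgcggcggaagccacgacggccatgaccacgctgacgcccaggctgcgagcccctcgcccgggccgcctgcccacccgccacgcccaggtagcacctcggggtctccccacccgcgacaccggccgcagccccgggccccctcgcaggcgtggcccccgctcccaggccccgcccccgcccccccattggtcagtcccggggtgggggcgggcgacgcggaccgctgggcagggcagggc
CITED4: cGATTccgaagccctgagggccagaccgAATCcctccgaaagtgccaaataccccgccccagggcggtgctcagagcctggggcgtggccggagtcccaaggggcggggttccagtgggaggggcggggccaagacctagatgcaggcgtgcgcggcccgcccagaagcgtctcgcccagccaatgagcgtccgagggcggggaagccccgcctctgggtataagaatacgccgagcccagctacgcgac
MFSD2A: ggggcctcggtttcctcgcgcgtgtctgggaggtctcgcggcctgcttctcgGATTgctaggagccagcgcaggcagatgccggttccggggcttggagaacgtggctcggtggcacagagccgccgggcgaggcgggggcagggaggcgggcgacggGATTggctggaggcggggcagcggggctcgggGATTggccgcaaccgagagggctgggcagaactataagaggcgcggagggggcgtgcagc
SLC2A1: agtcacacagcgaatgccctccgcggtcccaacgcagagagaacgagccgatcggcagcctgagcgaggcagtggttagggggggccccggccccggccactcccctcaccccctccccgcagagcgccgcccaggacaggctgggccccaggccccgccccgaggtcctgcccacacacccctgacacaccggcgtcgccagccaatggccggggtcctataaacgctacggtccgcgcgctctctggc

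Most genes of the stretch were lower in KASUMI-1 than in THP-1. The stretch drew 0.284% to 0.357% of all reads in the KASUMI-1 libraries and 3.68% to 3.78% in the THP-1 libraries. The median member had a log2 ratio of mean CPM, KASUMI-1 over THP-1, of -2.73 in the LSD1i libraries and -2.56 in the vehicle libraries, where the medians over all 16695 genes with at least 10 reads were 0.024 and 0.0059. At least 4-fold lower levels in KASUMI-1 were seen for 34 of the 53 members with either agent, and 13% of all genes passed that fold in LSD1i and 13.5% in vehicle. At least 16-fold lower levels were seen for 16 members in LSD1i and 18 in vehicle, where 7.3% and 7.51% of all genes passed. All 4 KASUMI-1 libraries lay below all 4 THP-1 libraries for 46 members, against 30.7% of all genes. The opposite held for 1 member, the clone-named RP11-163G10.2, against 28.6% of all genes. In bulk RNA, fewer cells that express a gene and less of its RNA per cell cannot be told apart.

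**Figure D1:**
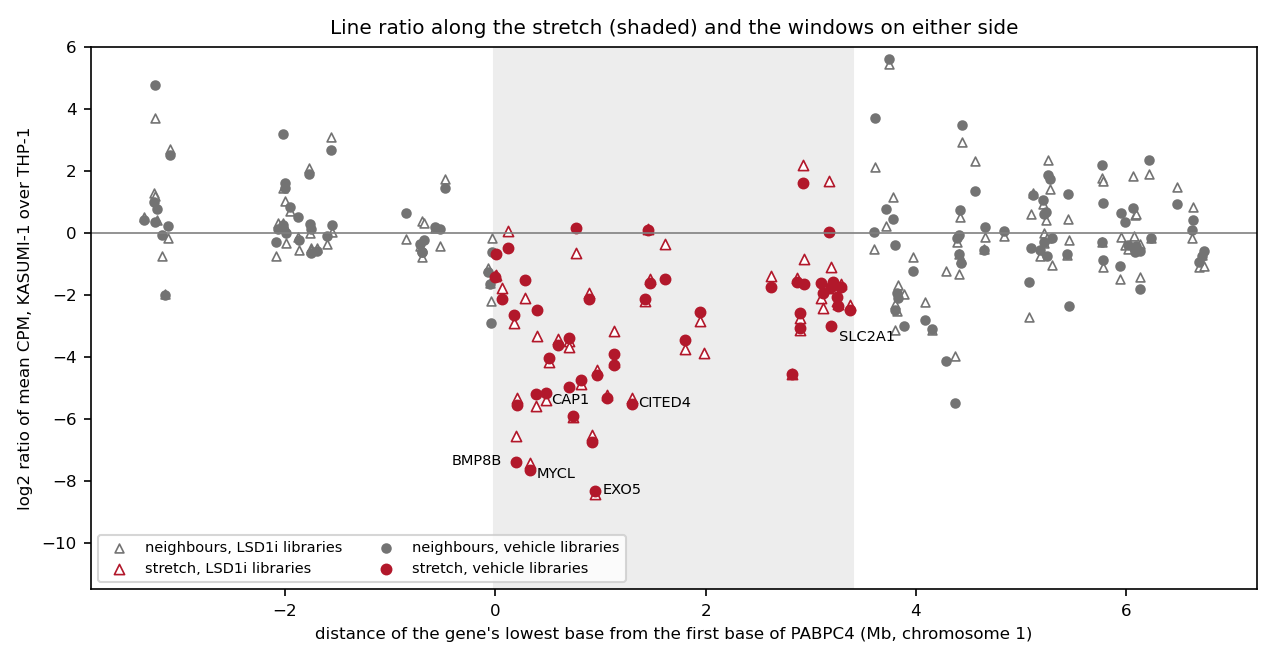
Log2 ratio of mean CPM, KASUMI-1 over THP-1, against the distance of each gene from the first base of PABPC4 in Mb; red marks are members (shaded stretch), grey marks the genes of the windows on either side, filled circles vehicle and open triangles LSD1i libraries (members and neighbours with 0 reads in a line are not drawn). The red marks fall mostly under -1 and reach -8.44 at EXO5. The grey marks of both windows scatter around 0, apart from a run after SLC2A1, from CDC20 to ST3GAL3, that lies mostly under -1.

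The gap was widest in the middle of the stretch. Divided after the values had been seen, the 20 members from MYCL to CITED4 had a median log2 ratio of -4.30 in LSD1i and -4.67 in vehicle, with 17 and 18 of them at least 4-fold lower in KASUMI-1. The 9 members from PABPC4 to TRIT1 had medians of -2.12 and -2.14, and the 24 members from CTPS1 to SLC2A1 had medians of -1.95 and -1.86. Windows of equal length outside had medians near 0, at -0.011 in LSD1i and 0.18 in vehicle before PABPC4 (39 genes) and at -0.27 and -0.30 after SLC2A1 (62 genes). The edges were not sharp in the same way. Before PABPC4, MACF1, a linker of actin and microtubules, was higher in KASUMI-1 (log2 ratio 1.75 in LSD1i and 1.44 in vehicle), while BMP8A between them was lower (-1.12 and -1.26). After SLC2A1, the first gene, EBNA1BP2, stood at -0.51 in LSD1i and 0.04 in vehicle, but genes further on were again lower in KASUMI-1, among them the mitotic activator CDC20 (-3.13 and -2.48) and the sialyltransferase gene ST3GAL3 (-3.12 and -3.10). IPO13 beyond them stood at -0.30 and -0.16. These neighbours were named after their values were seen.

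Per length of exon, the members stood below the typical gene in KASUMI-1 and above it in THP-1. The median member had 2.24 RPKM (reads per kilobase of exon, scaled by library size) over the KASUMI-1 libraries and 27.1 RPKM over the THP-1 libraries, while the median of all genes was 3.91 and 3.88 RPKM. YBX1 led in both lines, with 1104 RPKM in KASUMI-1 and 5022 RPKM in THP-1. CAP1 followed it in THP-1 at 3985 RPKM, while in KASUMI-1, at 102.5 RPKM, it also stood behind PPT1 at 142 RPKM and PPIH at 106 RPKM. By reads, CAP1 was the first or the second gene of every THP-1 library and took 1.25% to 1.42% of its reads, and it ranked between 379 and 439 in KASUMI-1.

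**Figure D2:**
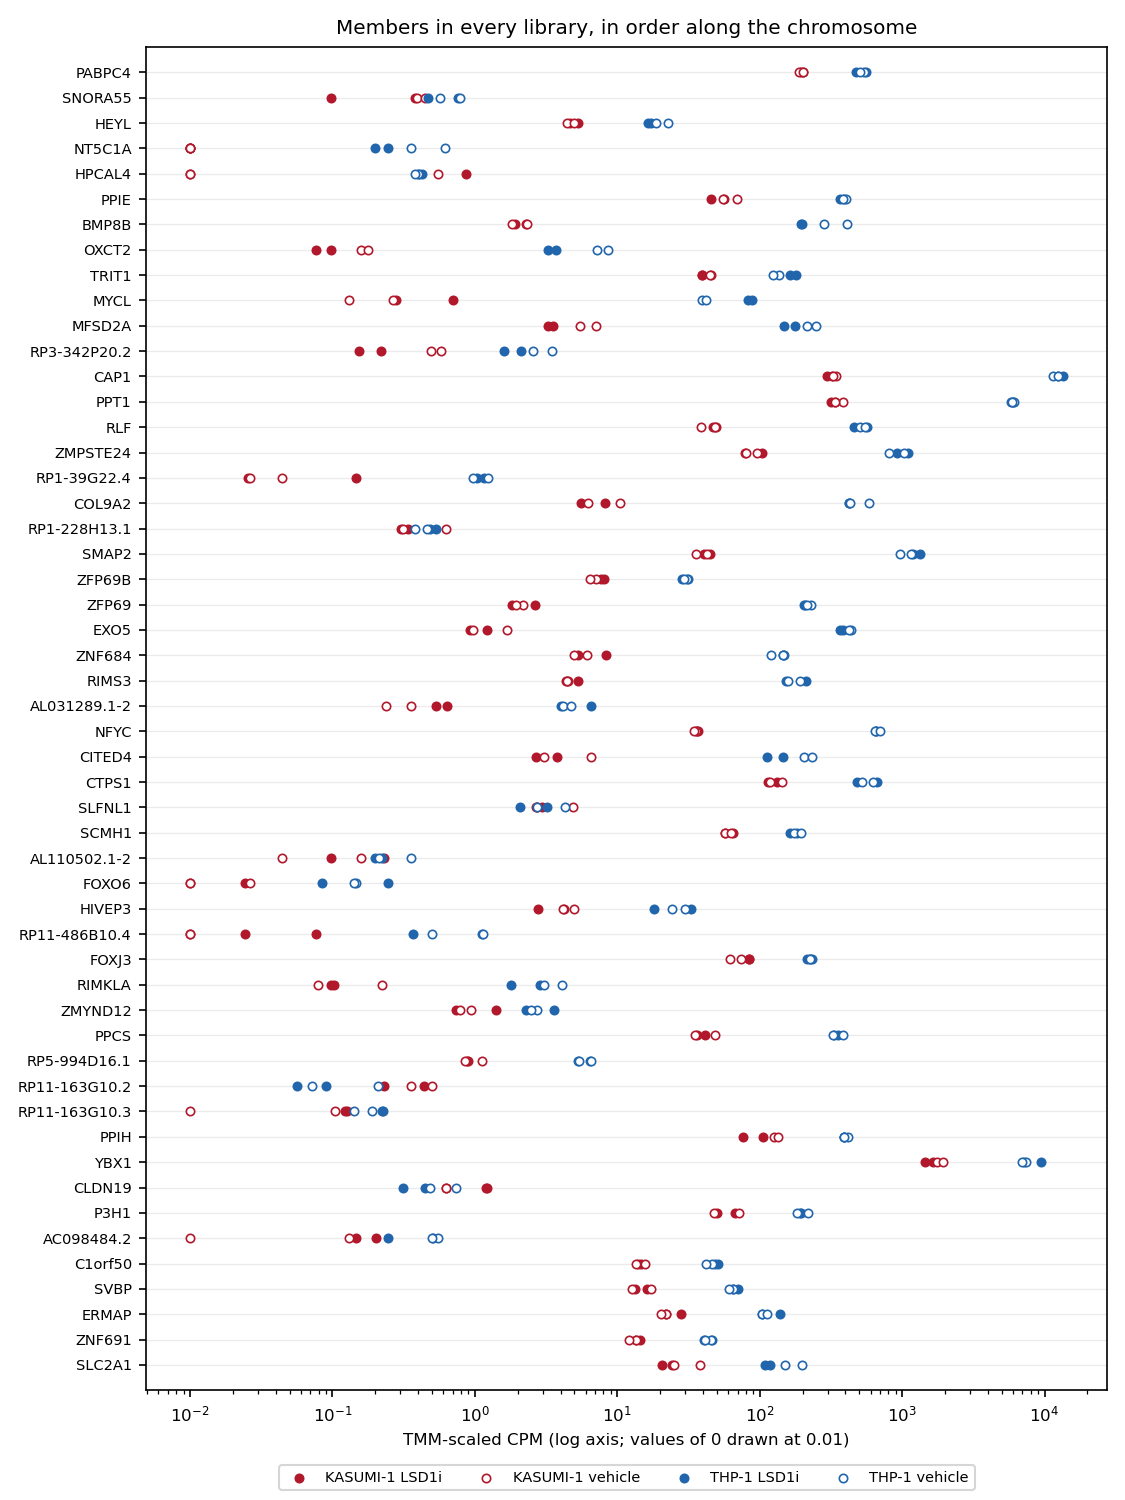
TMM-scaled CPM (log axis) of the members in every library, in order along the chromosome; red is KASUMI-1, blue is THP-1, filled LSD1i, open vehicle, and values of 0 are drawn at 0.01. The lines separate for most members, and LSD1i and vehicle marks of a line mostly lie together.

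Among the genes that act on the cell's skeleton and membranes, CAP1, which promotes actin filament turnover, had 319 and 296 CPM at 6 and 72 h in KASUMI-1 with LSD1i and 343 and 325 CPM with vehicle. THP-1 cells had 13556 and 12426 CPM at 24 and 72 h with LSD1i and 11545 and 12360 CPM with vehicle. It was 42.2-fold lower in KASUMI-1 in LSD1i and 35.8-fold lower in vehicle. RIMS3, a protein of synaptic vesicle release, had 4.50 and 5.33 CPM in KASUMI-1 with LSD1i and 4.33 and 4.41 CPM with vehicle. Levels in THP-1 were 154 and 213 CPM with LSD1i and 159 and 192 CPM with vehicle. The remaining member of the group, SMAP2, an Arf GTPase-activating protein of vesicle traffic, had a log2 ratio of -4.88 in LSD1i and -4.75 in vehicle. The 3 members had a median of -5.16 in vehicle. None moved past the test with LSD1i in either line, but 3 are too few to read a share from. Over all genes, 12.1% moved past it in KASUMI-1 and 9.36% in THP-1.

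The lysosomal and protein-modifying enzymes were lower in KASUMI-1 as well. PPT1, which strips palmitate from proteins in the lysosome, had 338 and 319 CPM in KASUMI-1 with LSD1i and 386 and 339 CPM with vehicle. In THP-1 it had 5800 and 5989 CPM with LSD1i and 6074 and 5894 CPM with vehicle, so the lines did not overlap. ZMPSTE24, the protease that matures prelamin A, stood at -3.48 in LSD1i and -3.39 in vehicle on the log2 scale. SVBP, the partner of the vasohibin tubulin carboxypeptidases, stood at -2.19 and -2.08, and P3H1, a prolyl hydroxylase of collagen, at -1.72 and -1.75. No member of this group of 4 moved past the test with LSD1i, where 12.1% of all genes did in KASUMI-1 and 9.36% in THP-1. A group of 4 is too small to read a share from.

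The DNA-binding and chromatin genes formed the most numerous group, with 14 members, a median log2 ratio of -3.01 in vehicle and 10 members at least 4-fold lower in KASUMI-1. Zinc finger gene ZFP69 had 1.83 and 2.66 CPM in KASUMI-1 with LSD1i and 2.18 and 1.96 CPM with vehicle, and in THP-1 206.5 and 205 CPM with LSD1i and 231 and 216 CPM with vehicle. NFYC, a subunit of the CCAAT-binding factor NF-Y, had 37.0 and 36.3 CPM in KASUMI-1 with LSD1i and 35.8 and 34.8 CPM with vehicle, and in THP-1 651 and 658 CPM with LSD1i and 650.1 and 700.0 CPM with vehicle. NFYC kept within a narrow range in each line, and both genes were far apart between the lines. SCMH1, a Polycomb protein, had 57.1 and 64.9 CPM in KASUMI-1 with LSD1i and 57.4 and 62.9 CPM with vehicle, and in THP-1 164 and 182 CPM with LSD1i and 173 and 194 CPM with vehicle. HIVEP3, a large zinc finger protein, had 4.25 and 2.78 CPM in KASUMI-1 with LSD1i and 4.96 and 4.18 CPM with vehicle, and in THP-1 33.0 and 18.1 CPM with LSD1i and 29.8 and 24.3 CPM with vehicle. The others in vehicle ran through ZNF684 at -4.59, RLF at -3.61, ZFP69B at -2.15, the Notch-responsive repressor HEYL at -2.14, ZNF691 at -1.76, the forkhead factor FOXJ3 at -1.74 and ZMYND12 at -1.59. FOXO6 was not tested: it had 0 and 1 reads in KASUMI-1 with LSD1i and 1 and 0 with vehicle, against 11 and 3 reads in THP-1 with LSD1i and 7 and 6 with vehicle. Its summed reads, scaled by library size, were 8.78-fold lower in KASUMI-1 in vehicle, with a 95% counting interval of 1.32 to 373.

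The genes of RNA binding and processing had a median of -1.63 in vehicle over 5 members, a smaller gap than in the groups above. All 5 lie outside the part from MYCL to CITED4, where the gap was widest, while CAP1, SMAP2 and RIMS3 all lie inside it. Whether the gap went with role or with position was not tested. PABPC4, which binds poly(A) tails, had 194 and 201 CPM in KASUMI-1 with LSD1i and 190 and 200.5 CPM with vehicle, and in THP-1 561 and 474.5 CPM with LSD1i and 538 and 505 CPM with vehicle. YBX1, which binds Y-box DNA and messenger RNA, had 1641 and 1457 CPM in KASUMI-1 with LSD1i and 1756 and 1943 CPM with vehicle. The THP-1 libraries had 7153 and 9406 CPM with LSD1i and 7438 and 6916 CPM with vehicle. PPIE, a cyclophilin of the spliceosome, stood at -2.90 in LSD1i and -2.66 in vehicle.

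EXO5, an exonuclease for single-stranded DNA, had the largest gap of the stretch. It had 1.22 and 0.925 CPM in KASUMI-1 with LSD1i and 0.971 and 1.69 CPM with vehicle, against 382 and 365 CPM in THP-1 with LSD1i and 440.4 and 420.5 CPM with vehicle. That made it 348-fold lower in KASUMI-1 in LSD1i and 323-fold lower in vehicle. COL9A2, a chain of cartilage collagen IX, had 5.60 and 8.23 CPM in KASUMI-1 with LSD1i and 6.22 and 10.5 CPM with vehicle, against 421 and 427 CPM in THP-1 with LSD1i and 429 and 586 CPM with vehicle. CTPS1, a CTP synthase that serves nucleotide supply, had 133 and 115 CPM in KASUMI-1 with LSD1i and 144 and 119 CPM with vehicle, against 667 and 481 CPM in THP-1 with LSD1i and 629 and 522 CPM with vehicle. The other metabolic genes included PPCS of coenzyme A synthesis, at -3.14 in LSD1i and -3.08 in vehicle, and RIMKLA, which makes the neuropeptide NAAG, at -4.54 and -4.57. NT5C1A, a nucleotidase, had 0 reads in all KASUMI-1 libraries and 7 to 26 in THP-1, which made it at least 6.02-fold lower in KASUMI-1 in LSD1i and at least 9.68-fold lower in vehicle against a floor of 3 reads over each pair of libraries, taking the THP-1 reads as counted (with their counting error, the lower 95% limits were 4.41 and 7.54). All 7 metabolic genes were at least 4-fold lower in KASUMI-1 in vehicle.

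The members that were not lower in KASUMI-1 had few reads in both lines. SLFNL1 had a log2 ratio of 0.12 in LSD1i and 0.10 in vehicle, and the tight-junction gene CLDN19 of 1.67 and 0.04. By contrast, ERMAP, a membrane protein known from red cells, had a wide gap, at -2.28 and -2.37, and its span overlaps that of SVBP. HPCAL4, a neuronal calcium sensor, was found at one time only in KASUMI-1: it had 34 reads with LSD1i and 21 with vehicle at 6 h, and 0 with either agent at 72 h, while THP-1 had 15 to 19 reads in every library. RP11-163G10.2, the member that was higher in KASUMI-1, had 9 and 18 reads there with LSD1i and 19 and 8 with vehicle, against 4 and 2 reads in THP-1 with LSD1i and 10 and 3 with vehicle. Of the other low or unnamed members, C1orf50 stood at -1.79 in LSD1i and -1.59 in vehicle, RP5-994D16.1 at -2.73 and -2.59, AL031289.1-2 at -3.17 and -3.90, the small nucleolar RNA SNORA55 at -1.36 and -0.69, RP1-39G22.4 at -3.67 and -4.97, AC098484.2 at -1.11 and -2.99 and RP1-228H13.1 at -0.65 and 0.16. The untested AL110502.1-2 stood at -0.37 and -1.50 and RP11-163G10.3 at -0.85 and -1.66, both with at most 17 reads in a library. RP11-486B10.4, which lies inside HIVEP3, was lower in KASUMI-1. It had 4 reads there with LSD1i and none with vehicle, against 63 reads in THP-1 with LSD1i and 75 with vehicle.

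A minority of the genes of the stretch moved past the test with LSD1i, as was also the case over all genes. Of the members, 50 could be tested with edgeR's quasi-likelihood test over 16060 genes. With LSD1i in KASUMI-1, 4 of the 50 fell and 0 rose, or 8% against 12.1% of all genes in either direction, with 5.09% of all genes falling and 7.02% rising. With LSD1i in THP-1, 5 fell and 2 rose, or 14% against 9.36% in either direction, with 2.85% falling and 6.51% rising. The median fitted log2 change of the members was -0.01 in KASUMI-1 and -0.04 in THP-1, where all genes had medians of 0.02 and -0.01. Changes smaller than 0.5 in size were fitted for 36 of the 50 in KASUMI-1 and 37 in THP-1 (72% and 74%, against 77.2% and 80.3% of all genes), counting NT5C1A, which had no read in KASUMI-1. At an unadjusted p under 0.05 there were 11 members in each line, where 27% of all genes had such a p in KASUMI-1 and 19.8% in THP-1. The counts moved with the pairs in the fit: without its own 72 h pair, KASUMI-1 had 0 members called, and THP-1 had 1, MYCL. The calls also shifted with pairs of the other line, whose spread the fit shares: in KASUMI-1 1 member, MFSD2A, was called without the THP-1 24 h pair and 2, MFSD2A and PPIH, without the THP-1 72 h pair. In THP-1 5 were called without its 24 h pair, and 10 without either KASUMI-1 pair, with RP3-342P20.2 and RIMKLA among the additional ones.

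**Figure D3:**
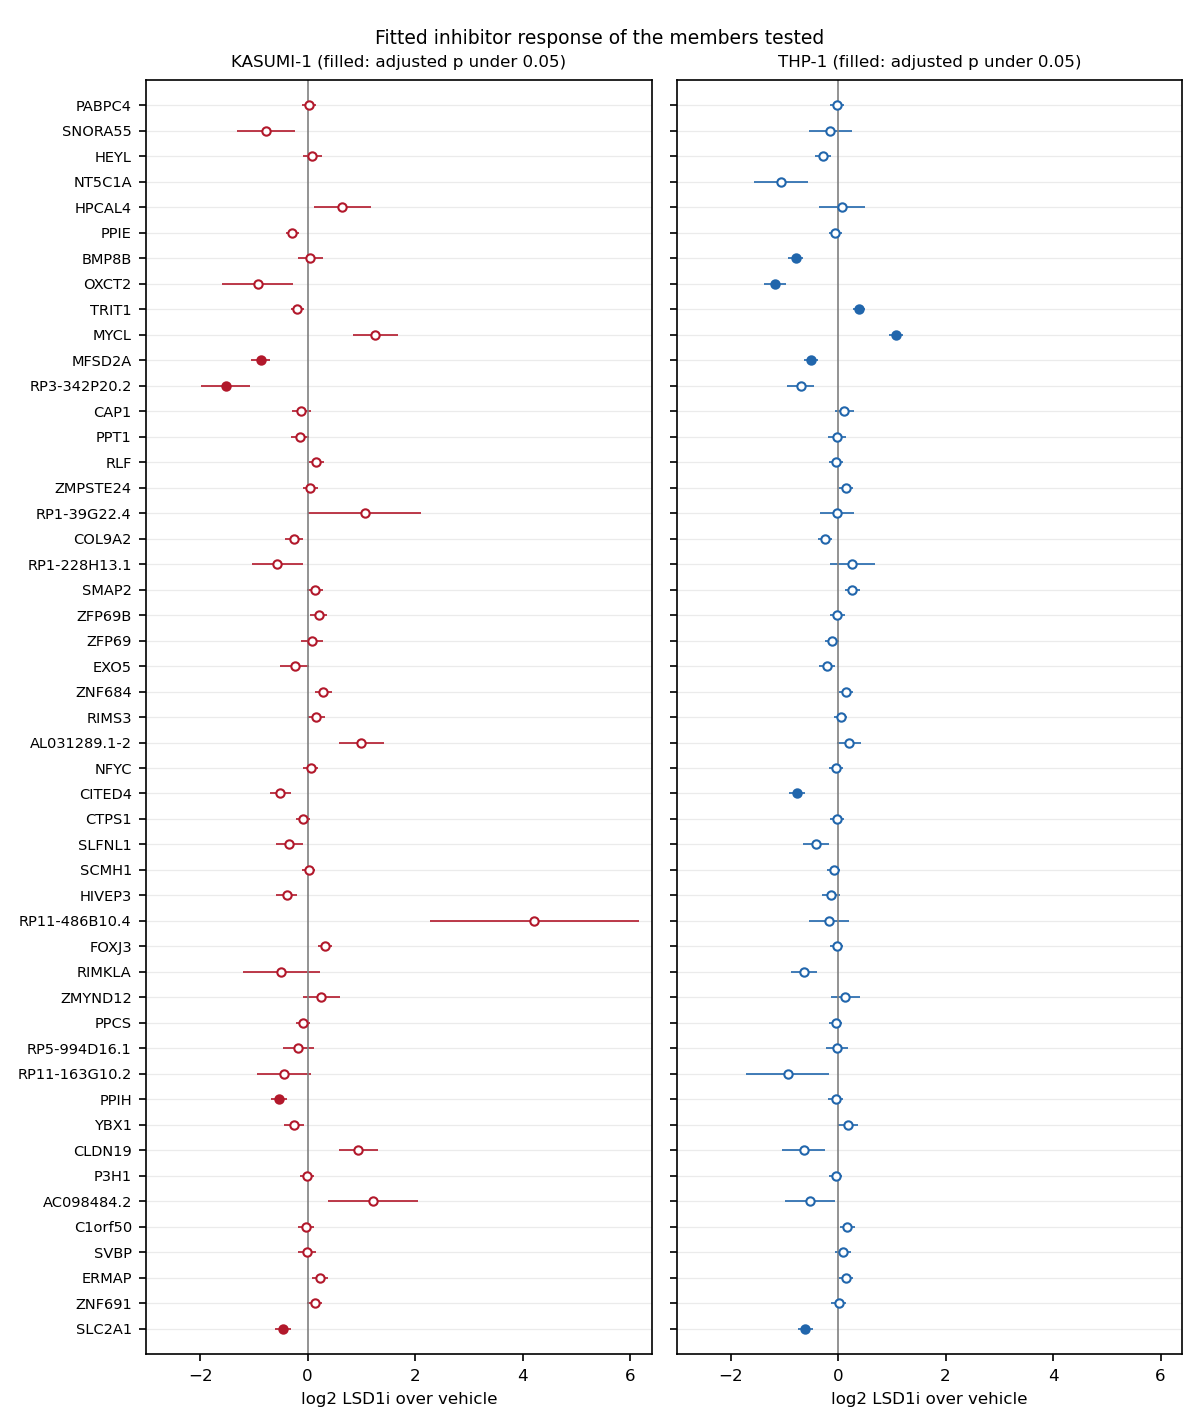
Fitted log2 change, LSD1i over vehicle, of the members tested, in KASUMI-1 (left) and THP-1 (right), with bars of 1 SE and filled marks for adjusted p under 0.05 by edgeR's quasi-likelihood test. Most marks lie within 0.5 of 0, and NT5C1A is not drawn in KASUMI-1, where it had 0 reads.

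SLC2A1 and MFSD2A, both carriers of the plasma membrane, fell in both lines. SLC2A1, the glucose transporter GLUT1, had 20.5 and 24.2 CPM in KASUMI-1 with LSD1i at 6 and 72 h and 24.8 and 38.0 CPM with vehicle. THP-1 libraries held 118 and 108 CPM with LSD1i at 24 and 72 h and 149.9 and 199.5 CPM with vehicle. In both lines the LSD1i libraries lay below the vehicle libraries, and the gap was wider at 72 h. The fitted log2 change was -0.46 ± 0.15 (SE, 2 pairs, adjusted p = 0.0485) in KASUMI-1 and -0.61 ± 0.14 (adjusted p = 0.00764) in THP-1. MFSD2A, which carries lysophosphatidylcholine with its omega-3 fatty acids, had 3.26 and 3.56 CPM in KASUMI-1 with LSD1i and 5.51 and 7.08 CPM with vehicle. In THP-1 it had 178 and 148 CPM with LSD1i and 216 and 247 CPM with vehicle. No LSD1i library reached a vehicle library of its line. The change was -0.87 ± 0.17 (adjusted p = 0.00383) in KASUMI-1 and -0.51 ± 0.13 (adjusted p = 0.0184) in THP-1. Without the 72 h pair, SLC2A1 stood at -0.28 (adjusted p = 0.553) in KASUMI-1 and -0.36 (0.618) in THP-1, and MFSD2A at -0.76 (0.0544) and -0.29 (0.748). The KASUMI-1 call of SLC2A1 was also lost with either THP-1 pair left out (adjusted p = 0.0596 for 24 h and 0.0549 for 72 h), with the value at -0.48 in both.

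A clone-named gene inside MFSD2A, RP3-342P20.2, was counted at 6 and 9 reads in KASUMI-1 with LSD1i and 22 and 11 reads with vehicle, from libraries of different depth. These are 0.153 and 0.219 CPM with LSD1i and 0.577 and 0.490 CPM with vehicle. Its level in THP-1 was 1.61 and 2.12 CPM with LSD1i and 2.56 and 3.49 CPM with vehicle. Its change of -1.53 ± 0.46 (adjusted p = 0.0393) in KASUMI-1 passed and its -0.70 ± 0.25 (adjusted p = 0.105) in THP-1 did not. It lies on the same strand as MFSD2A, and whether reads of MFSD2A were counted in it was not tested. Its KASUMI-1 call was lost with either KASUMI-1 pair left out, at -1.14 without 6 h and -1.90 without 72 h. Without either THP-1 pair its KASUMI-1 adjusted p was 0.0750 (24 h left out) and 0.0743 (72 h left out), and without either KASUMI-1 pair it was called in THP-1 (0.0323 and 0.0333).

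MYCL was the member that rose most in THP-1. It had 82.3 and 88.8 CPM there with LSD1i at 24 and 72 h and 39.1 and 41.6 CPM with vehicle, with groups that did not overlap. The change was 1.08 ± 0.13 on the log2 scale (SE, 2 pairs, adjusted p = 1.47e-05), and it was called under all 9 alternatives of the fit. In KASUMI-1 the gene was near its limit of detection, at 11 and 29 reads with LSD1i and 5 and 6 reads with vehicle, or 0.280 and 0.706 CPM against 0.131 and 0.267 CPM. The fitted value there was 1.26 ± 0.41 (adjusted p = 0.0550), short of the threshold. Counting error alone gave a 95% interval of 1.08 to 7.79 for the fold of the 72 h pair and of 0.683 to 7.83 for the 6 h pair. The difference between the lines' changes was 0.18 ± 0.42 (adjusted p = 0.868). With LSD1i the gene remained 173-fold lower in KASUMI-1 than in THP-1, against 203-fold in vehicle.

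In THP-1 3 further genes fell that lie at the left and the middle of the stretch. BMP8B, a ligand of the TGF-beta family, had 199.5 and 195 CPM with LSD1i and 283 and 411 CPM with vehicle, a change of -0.79 ± 0.15 (adjusted p = 0.00122). In KASUMI-1 it had 2.29 and 1.92 CPM with LSD1i and 1.84 and 2.31 CPM with vehicle, with no common direction. OXCT2, a testis-type enzyme of ketone body use that lies inside BMP8B, had 3.29 and 3.70 CPM in THP-1 with LSD1i and 7.21 and 8.67 CPM with vehicle, a change of -1.18 ± 0.21 (adjusted p = 0.000802). In KASUMI-1 it had 3 and 4 reads with LSD1i and 6 and 4 with vehicle, too few to show a change. CITED4, a coactivator that binds CBP and p300, had 146 and 113 CPM in THP-1 with LSD1i and 204 and 232 CPM with vehicle, a change of -0.76 ± 0.15 (adjusted p = 0.00168). In KASUMI-1 it had 2.70 and 3.78 CPM with LSD1i and 3.07 and 6.50 CPM with vehicle, a value of -0.51 ± 0.20 (adjusted p = 0.104). All 3 were lower with LSD1i in both THP-1 pairs, and the fall of BMP8B and CITED4 was the wider at 72 h, at log2 ratios of -1.07 and -1.04 against -0.50 and -0.48 at 24 h. Without the THP-1 72 h pair, the adjusted p was 0.282 for BMP8B, 0.136 for OXCT2 and 0.341 for CITED4. OXCT2 was also lost without the THP-1 24 h pair (adjusted p = 0.0680), though its value was as large, at -1.25 without 24 h and -1.15 without 72 h. BMP8B stood at -0.52 and CITED4 at -0.50 without 72 h, and CITED4 was called in KASUMI-1 at -0.78 without the KASUMI-1 6 h pair (0.0105).

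**Figure D4:**
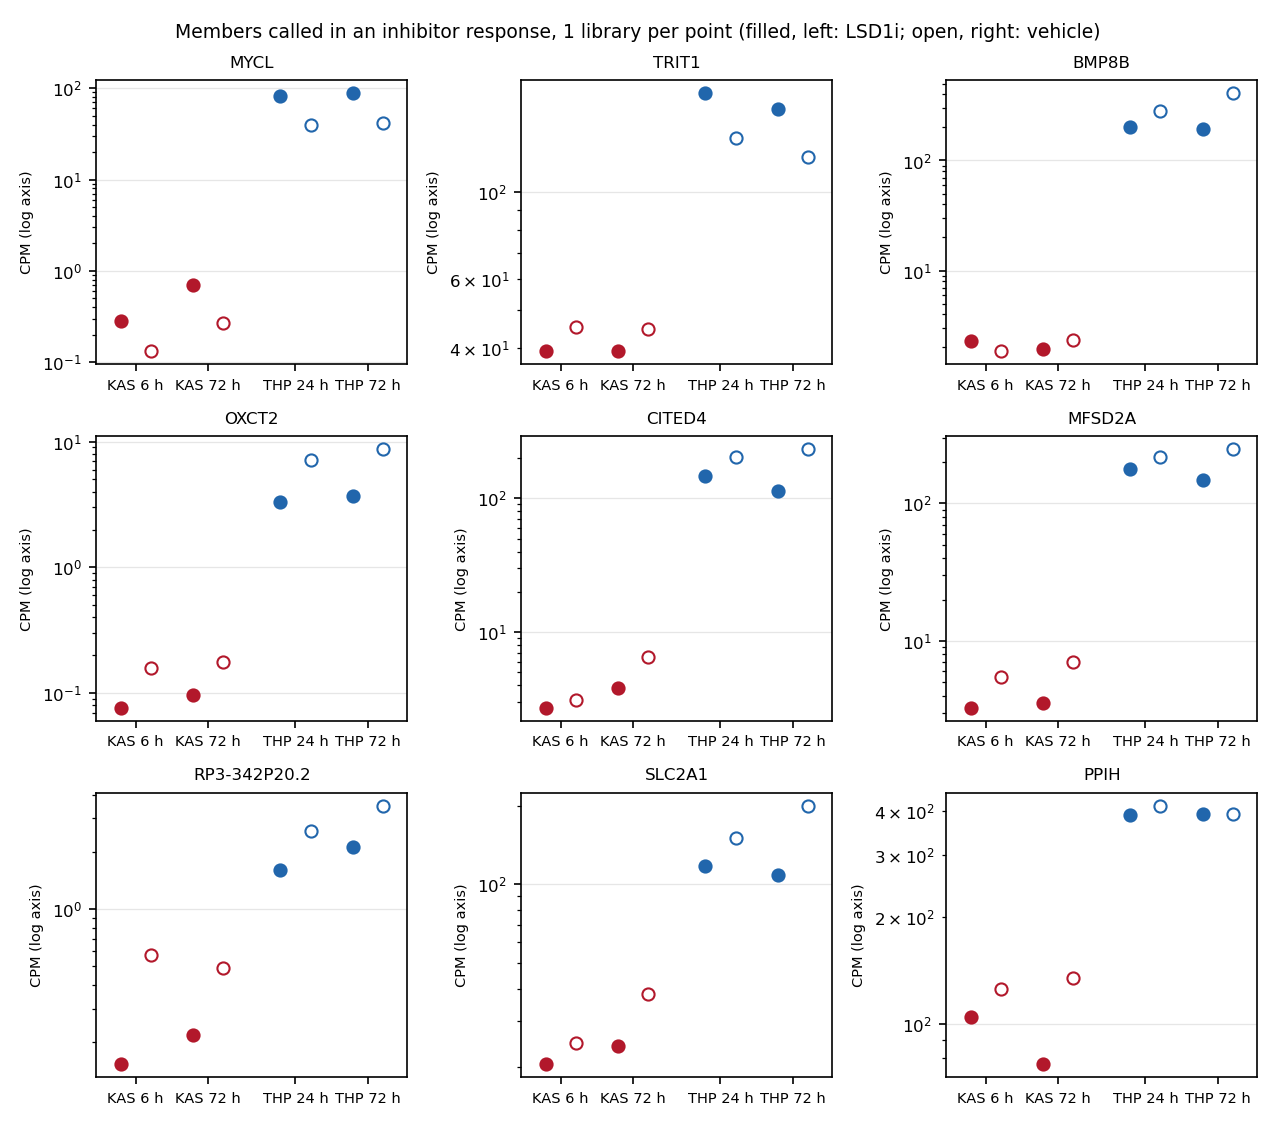
TMM-scaled CPM (log axis, own scale per gene) of the 9 members that moved past the test with LSD1i in KASUMI-1 (KAS, red) or THP-1 (THP, blue), 1 point per library, LSD1i filled on the left and vehicle open on the right of each pair. MYCL lies higher with LSD1i in all 4 pairs, SLC2A1 and MFSD2A lie lower in all 4, and TRIT1 lies higher in THP-1 and lower in KASUMI-1.

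A pair of genes of RNA processing moved in one line each. PPIH, a cyclophilin of the U4/U6 small nuclear ribonucleoprotein, had 105 and 76.6 CPM in KASUMI-1 with LSD1i and 125 and 135 CPM with vehicle, a change of -0.54 ± 0.14 (adjusted p = 0.0220). In THP-1 it had 389 and 393 CPM with LSD1i and 414 and 392 CPM with vehicle, a value of -0.04 ± 0.14 (adjusted p = 0.926). The difference between these changes was -0.49 ± 0.20 and did not pass (adjusted p = 0.159). Without the KASUMI-1 6 h pair the difference was -0.77 and passed (adjusted p = 0.0144), and without the KASUMI-1 72 h pair the KASUMI-1 value was -0.26 (0.593). The KASUMI-1 call was also lost without the THP-1 24 h pair (0.0548). TRIT1, which adds an isopentenyl group to transfer RNA, had 178 and 163 CPM in THP-1 with LSD1i and 137 and 123 CPM with vehicle, a change of 0.39 ± 0.12 (adjusted p = 0.0428). In KASUMI-1 it had 39.3 and 39.4 CPM with LSD1i and 45.2 and 44.9 CPM with vehicle, a value of -0.20 ± 0.12 that did not pass (adjusted p = 0.325). Its THP-1 call was lost with either THP-1 pair left out (adjusted p = 0.346 without 24 h and 0.537 without 72 h) and without the low-count filter (0.0637), while the value stayed at 0.38, 0.37 and 0.38.

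TRIT1 was also the 1 member of 50 whose response differed between the lines, where 5.69% of all genes did, 2.62% with a difference above 0 and 3.07% below. The difference, KASUMI-1 minus THP-1, was -0.59 ± 0.17 on the log2 scale (adjusted p = 0.0488), and 5 members had an unadjusted p under 0.05, where 21.3% of all genes did. The early pairs differ in time, 6 h in KASUMI-1 and 24 h in THP-1, so line and time cannot be fully told apart. With a 72 h pair left out, the lines share no full set of times. The call sat at the threshold: it held under 3 of 9 alternatives, the value stayed between -0.60 and -0.57 with any pair left out, and its adjusted p ran from 0.0251 to 0.297 over all 9. Without the THP-1 24 h pair the adjusted p was 0.258, without the THP-1 72 h pair 0.262, without the KASUMI-1 6 h pair 0.0729 and without the KASUMI-1 72 h pair 0.0978. Next in line were BMP8B, with a difference of 0.84 ± 0.27 (adjusted p = 0.0797, but 0.0158 without the KASUMI-1 72 h pair and 0.0213 without the low-count filter), and CLDN19, with 1.58 and 47 and 50 reads in KASUMI-1 with LSD1i against 24 and 14 with vehicle (adjusted p = 0.0972).

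By role, 2 of the 7 metabolic enzymes and carriers fell in KASUMI-1 (MFSD2A and SLC2A1) and 3 in THP-1 (these and OXCT2), where 5.09% and 2.85% of all genes fell. The groups are too small to read a share from. The DNA-binding and chromatin genes had 13 tested, of which 0 moved past the test in KASUMI-1, 1 rose (MYCL) and 1 fell (CITED4) in THP-1. Of the 5 genes of RNA binding and processing, PPIH fell in KASUMI-1 and TRIT1 rose in THP-1. Of the 2 secreted ligands and matrix genes, BMP8B fell in THP-1. The cytoskeleton and traffic genes and the lysosomal and protein-modifying genes had no member past the test in either line, nor did the remaining group of 4 membrane genes. The most abundant genes gave small values: CAP1 had -0.12 ± 0.18 in KASUMI-1 and 0.12 ± 0.18 in THP-1, PPT1 -0.14 ± 0.17 and -0.02 ± 0.17, and YBX1 -0.26 ± 0.19 and 0.19 ± 0.19, with single pairs of YBX1 from -0.42 at 72 h in KASUMI-1 to 0.44 at 72 h in THP-1.

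Of the 8 genes with the widest line gaps in vehicle, MYCL, BMP8B, OXCT2 and CITED4 moved past the test in THP-1, and EXO5, ZFP69, COL9A2 and RIMS3 did not in either line. Over all genes, 9.36% moved past it in THP-1. The gap and the THP-1 response use the same THP-1 vehicle libraries, so no link between them is read here. The KASUMI-1 pairs of EXO5 and ZFP69 went opposite ways: with 1 KASUMI-1 pair left out, the fitted value was 0.33 from the 6 h pair and -0.86 from the 72 h pair for EXO5, and -0.25 and 0.44 for ZFP69. In THP-1 these genes had values of -0.21 and -0.12. COL9A2 had a fitted value of -0.25 in KASUMI-1 and -0.24 in THP-1, and RIMS3 had 0.16 and 0.05. Other members named for their role were not past the test either, with NFYC at 0.06 and -0.04, SCMH1 at 0.02 and -0.08, CTPS1 at -0.08 and -0.02, PABPC4 at 0.02 and -0.02 and HIVEP3 at -0.39 and -0.13.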

How the data were processed

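Per the labels' protocols, 8 libraries were made with a TruSeq kit from 500 ng of total RNA each. The deposited table holds the authors' whole-number read counts for every gene name; per the file headers, featureCounts 1.5.2 counted reads on Ensembl 54 gene models of NCBI build 36, with no strand or multi-mapping option. Tools in the submitters' processing notes are TopHat2 2.0.10, FastQC 0.10.0, Subread and edgeR, with hg18 as the build. How reads were filtered is not given in the sources used here.

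Responses to LSD1i were tested with edgeR 4.0.16 in R 4.3.3 (quasi-likelihood F-test, TMM, filterByExpr at a minimum count of 10, Benjamini-Hochberg over 16060 genes at 0.05), with 4 pair terms and, in either line, a coefficient for LSD1i. With 2 residual degrees of freedom, the test relied largely on a spread estimated over all genes (common dispersion 0.0115, prior degrees of freedom 15.6 in the median). The pairs are matched by line and time in the labels; no replicate number pairs libraries, and the times of a line served as its replicates. A standard error is the size of the log2 change divided by the square root of F. The test was tried on simulated data. Line differences are log2 ratios of mean TMM-scaled CPM without a test; a fit of each agent's 4 libraries served only to name genes. RPKM used the table's gene lengths. Single pairs used a prior count of 2 and an exact conditional binomial 95% interval; intervals and floors (3 reads) cover counting error only. Alternatives were RLE size factors, no low-count filter, DESeq2 1.42.0, no pair term, leaving out each pair or library, at least 50 reads, a prior count of 0.5 and TMM from genes outside the stretch.

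The members, role groups and named genes were chosen with earlier results of these data known. Named with values in every library were PABPC4, SLC2A1, MYCL, YBX1, CTPS1, CAP1, PPT1, NFYC, SCMH1 and HIVEP3, members past a response test, and the 8 widest line differences in each direction, where no member higher in KASUMI-1 qualified. Values of 1 member and 1 marker are not reported here; the counts of members include that member.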

Additional observations from a re-analysis of the deposited data

Results flagged for a closer look

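TRIT1 was flagged because its response to LSD1i differed between the lines by a test of the difference itself. It was the 1 member of 50 called there, where 5.69% of all genes were. The difference, KASUMI-1 minus THP-1, was -0.59 on the log2 scale (SE 0.17, adjusted p = 0.0488, edgeR), and both KASUMI-1 pairs lay below 0, at -0.20 and -0.19, while both THP-1 pairs lay above 0, at 0.38 and 0.40. The call was lost under 6 of 9 alternatives. The early pairs differ in time, 6 h in KASUMI-1 and 24 h in THP-1, so line and time cannot be fully told apart.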

How the results depend on the processing

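The counts of members called did not change with RLE size factors or, in an alternative chosen after seeing the data, with TMM from genes outside the stretch, and they were unchanged among members with at least 50 reads. DESeq2 called 3 members in KASUMI-1, 7 in THP-1 and 1 in the difference, all also called by edgeR, and gave RP3-342P20.2 no adjusted p. Without the low-count filter, THP-1 kept 6 of its 7 and the difference called BMP8B in place of TRIT1. Without the replicate block (no term for the pairs) 0 members were called in KASUMI-1, 3 in THP-1 and 0 in the difference. Leaving out 1 pair gave 0 to 4 members in KASUMI-1, 1 to 10 in THP-1 and 0 to 1 in the difference. The median line ratio ranged over leave-one-out from -2.82 to -2.40 in vehicle and from -2.76 to -2.59 in LSD1i. In LSD1i it was -2.41 with a replicate block (earlier and later times paired) and -3.02 among members with at least 50 reads. DESeq2 was not run on the line ratios. Over the fitted changes of named genes, 525 values kept their side of the threshold, 33 lost it, 6 gained it and 0 changed sign while called, and 36 single-pair ratios stayed within their counting interval with the other prior count. Depth limits MYCL and OXCT2 in KASUMI-1, with 3 to 29 reads per library.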
